A study of Mus musculus with 1 sample.

Results

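Long intergenic noncoding RNA (lincRNA) genes are transcribed from their own start sites between protein-coding genes and have no accepted protein product. Of the 4890 autosomal genes typed as lincRNA in the GENCODE M21 annotation that had a value, 43 (0.879%) were at 5 FPKM or more in RNA of c-kit+ bone marrow (BM) cells. FPKM (fragments per kilobase of exon, scaled to the depth of the library) divides out gene length, so levels can be set side by side between genes. The 43 genes were chosen by this level, and their levels and ranks are therefore a description.

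The study examined mice lacking Gadd45g, a growth arrest and DNA damage inducible gene, and asked how its loss in blood-forming cells leads to a myeloproliferative neoplasm (MPN). The data are 1 library from the Ctrl group, C57BL/6 mice of wild type genotype. The series also compares Gadd45g+/- mice that developed MPN, whose cells were not analysed here. Neither the number nor the age of the Ctrl mice is given in the labels. The cells were FACS-sorted as c-kit+, with a label that also reads Lin- and Sca1-. With 1 library there was no replicate, so no test was run and no p-value is given. The FPKM values were scaled to a total of 15783891 fragments. Fragments recovered from FPKM and M21 exon length summed to 17113323, a sum that includes genes whose fragments did not come out whole, and shares of fragments below are of that sum. For the main genes, a 95% Wilson interval stands in parentheses where the fragments came out whole. These intervals cover counting error only, not the spread between libraries. Fragments amplified by PCR are not independent molecules, so the intervals may be too narrow even for counting error.

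The markers of the sort were set against those of other marrow cells. All 11 genes of a progenitor list were at 5 FPKM or more, beside 32.4% of autosomal protein-coding genes. The median level of the 11 was 50.3 FPKM. Kit, the receptor used for the sort, had a level of 7.17 FPKM, and Mpo, the granule peroxidase of myeloid progenitors, of 434 FPKM. All 7 genes of a neutrophil list also passed 5 FPKM, with a summed level of 12.4% of all FPKM. S100a9 was the most abundant gene of the table at 26677 FPKM. The list includes the granule genes Ngp, Ltf and Camp, and the stage of the neutrophil cells was not tested. The 4 erythroid genes took 9.79%, led by the haemoglobin chain gene Hba-a1 at 25466 FPKM, and the 5 B cell genes took 0.551%, led by Ighm at 2005 FPKM. Of 3 T cell genes the highest was Cd3d at 8.55 FPKM, the 3 macrophage genes were led by Csf1r at 51.5 FPKM, and none of 3 stem cell genes reached 1 FPKM. No gene of these lists was listed at 0, and markers of lineage-positive cells were high in a library labelled Lin-. In a bulk library, fewer cells of a type and less RNA per cell cannot be told apart, and the part of each cell type in the lincRNA levels was not tested.

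LincRNAs act in several ways that their levels alone do not show. Some stay in the nucleus and collect splicing or paraspeckle proteins, some are the carriers from which a microRNA (miRNA) or a small nucleolar RNA (snoRNA) is cut, some bind an RNA-binding protein or a miRNA in the cytoplasm, and for others only the act of transcription beside a coding gene is known to matter. Blood cells are known for lineage-restricted lincRNAs, many of which have been described in red cell precursors or in myeloid cells.

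Several of the 43 genes carry short stretches on which their known roles rest, and the best known are shown here before the levels. Mir142hg is the primary transcript of miR-142, a miRNA of blood cells, and the hairpin lies at chr11:87756864-87756927 on the plus strand of GRCm38, inside the gene. RefSeq gives 2 mature arms, with the seed (bases 2 to 8) in capitals.
mmu-miR-142a-5p: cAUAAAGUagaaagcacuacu
mmu-miR-142a-3p: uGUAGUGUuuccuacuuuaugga

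The gene 1700020I14Rik is Oip5os1 in RefSeq, better known as Cyrano, a cytoplasmic RNA that triggers the destruction of miR-7. It was searched for the miR-7 site. The site was found at bases 2935 to 2959 of a transcript of 8300 bases, at chr2:119602137-119602161 on the plus strand. In the best alignment, 22 of the 23 bases of miR-7a-5p were paired, 1 was mismatched and 2 bases of the site were left over. Among the 195 autosomal lincRNA genes at 1 FPKM or more (3.99%), this transcript gave the highest alignment score, 18.5 against 12.5 for the next, C130083M11Rik. The seed match alone is common and occurs in 12.6% of autosomal lincRNA transcripts. The capitals mark the seed in the miRNA and its match in the site.
mmu-miR-7a-5p: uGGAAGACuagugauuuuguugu
miR-7a site in 1700020I14Rik: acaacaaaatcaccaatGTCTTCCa

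The gene 2900097C17Rik is Norad in RefSeq, a cytoplasmic RNA that gathers the Pumilio proteins, repressors of mRNAs, and so protects genome stability. The Pumilio element was searched as TGTANATA on the transcript strand. Norad held 11 elements between bases 651 and 3526 of its 4915 bases, more than any other autosomal lincRNA gene. Any element at all was found in 11.4% of autosomal lincRNA genes, in 29 of the 152 from 1 to under 5 FPKM (19.1%) and in 9 of the 43 (20.9%). Among the 150 lincRNA transcripts of over 4 kb, only that of Norad had as many. A stretch of 246 bases at chr2:156390512-156390757, read on the minus strand, holds 3 of the elements, in capitals.
Pumilio elements in 2900097C17Rik: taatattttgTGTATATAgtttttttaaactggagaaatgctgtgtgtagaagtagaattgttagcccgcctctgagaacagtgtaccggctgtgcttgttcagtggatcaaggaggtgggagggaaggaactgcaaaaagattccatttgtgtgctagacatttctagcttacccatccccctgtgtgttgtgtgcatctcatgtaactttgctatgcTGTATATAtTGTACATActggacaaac

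Malat1 ends without a poly(A) tail. Its 3′ end is cut off before a tRNA-like element and is kept stable by a triple helix of 2 U-rich runs and an A-rich run. Runs of T or A are in capitals (T for U) in the 222 bases at chr19:5795914-5796135, read on the minus strand. The tRNA-like element follows them. One of them, TTTTGTTTT, overlaps a stretch that can pair with gagaaaac before it. A further T-rich run, ttttgcttttt, is in lower case, so the capitals do not mark out the helix.
3' part of Malat1: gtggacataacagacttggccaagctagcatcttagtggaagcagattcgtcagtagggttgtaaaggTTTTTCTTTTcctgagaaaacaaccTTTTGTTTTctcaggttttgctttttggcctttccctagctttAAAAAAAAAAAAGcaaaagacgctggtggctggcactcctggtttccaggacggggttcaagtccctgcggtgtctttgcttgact

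**Figure D1:**
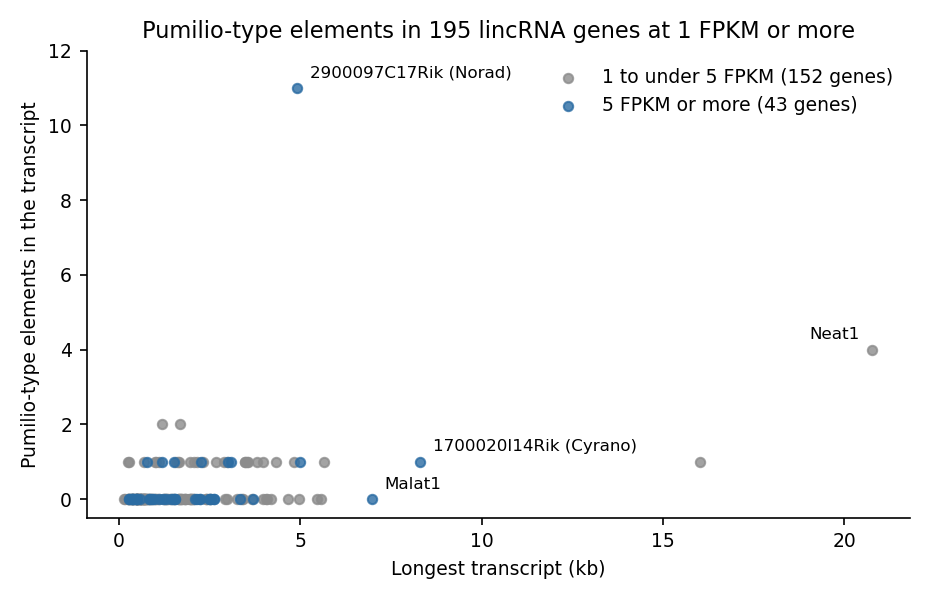
Number of Pumilio-type elements (letters TGTANATA, y axis) against the length of the longest transcript in kb (x axis) for the 195 autosomal lincRNA genes at 1 FPKM or more, with the 43 genes at 5 FPKM or more in blue and the 152 others in grey. Norad stands alone with 11 elements in 4915 bases, while the longest transcript, that of Neat1, holds 4.

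As a class, lincRNA genes were low in these cells. Of the 4890 genes, 3841 were listed at 0 and 1049 (21.5%) were above 0, with a median of 0.1995 FPKM among the latter. Of 20774 autosomal protein-coding genes, 69.1% were above 0 and 6724 (32.4%) reached 5 FPKM. Of all autosomal genes with a value, 14.7% did. The median of coding genes above 0 was 4.28 FPKM. Among genes at 5 FPKM or more, the medians were 11.8 FPKM for lincRNA and 15.0 FPKM for coding genes. Both groups were cut at the same limit, which draws such medians together, so no likeness of the classes is read from them. The coding range went on to 26677 FPKM, whereas the highest lincRNA gene, Malat1, was at 72.0 FPKM.

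**Figure D2:**
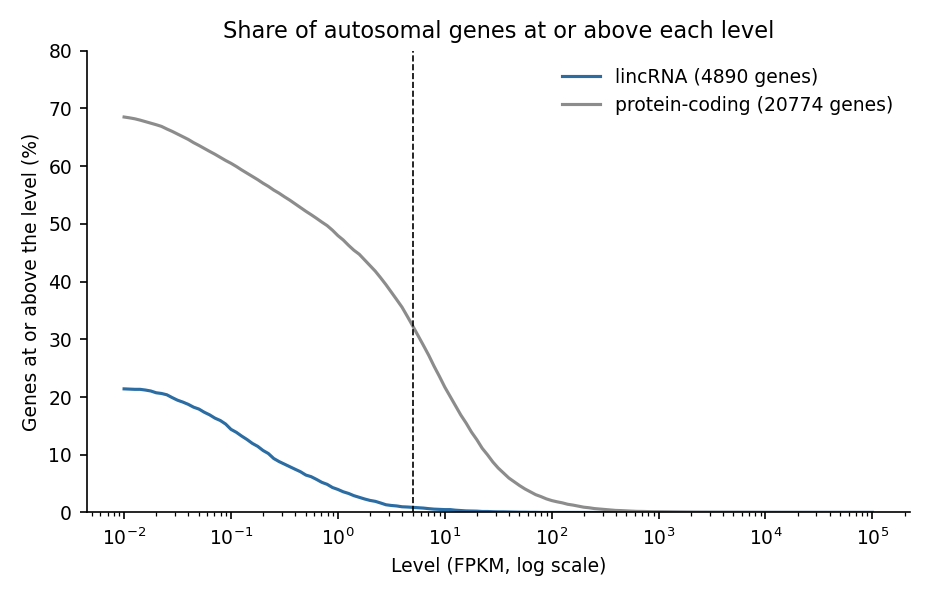
Share of autosomal lincRNA genes (blue, 4890) and protein-coding genes (grey, 20774) at or above each level, in percent, against the level in FPKM on a log scale, with a dashed line at 5 FPKM. At that line the curves stand at 0.879% and 32.4%.

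Together the 43 genes had 714 FPKM, or 0.166% of all FPKM, and 30331 fragments, or 0.177% of all fragments. Their levels ran from 5.05 to 72.0 FPKM, with 24 genes at 10 FPKM or more and 11 at 20 or more. Malat1 alone made up 10.1% of their FPKM and 26.2% of their fragments, and the top 5 genes 36.0% of their FPKM. Ranked among all 54532 genes of the table, they lay between places 757 and 7586. The fragments behind a level ran from 29 for Gm38843 to 7938 for Malat1, and 3 genes had under 50.

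The order of most neighbouring levels was within counting error. Of 42 pairs of neighbours in the order, both genes had an interval in 36, and the intervals did not overlap in 3. These were Malat1 above Mir142hg, Gm42047 above Norad, and Cyrano above AI839979. Norad and Cyrano, whose intervals did not overlap either, have AW112010, without an interval, between them. In the other 33 pairs the intervals overlapped, and below AI839979 no neighbouring pair with intervals was resolved at this depth.

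**Figure D3:**
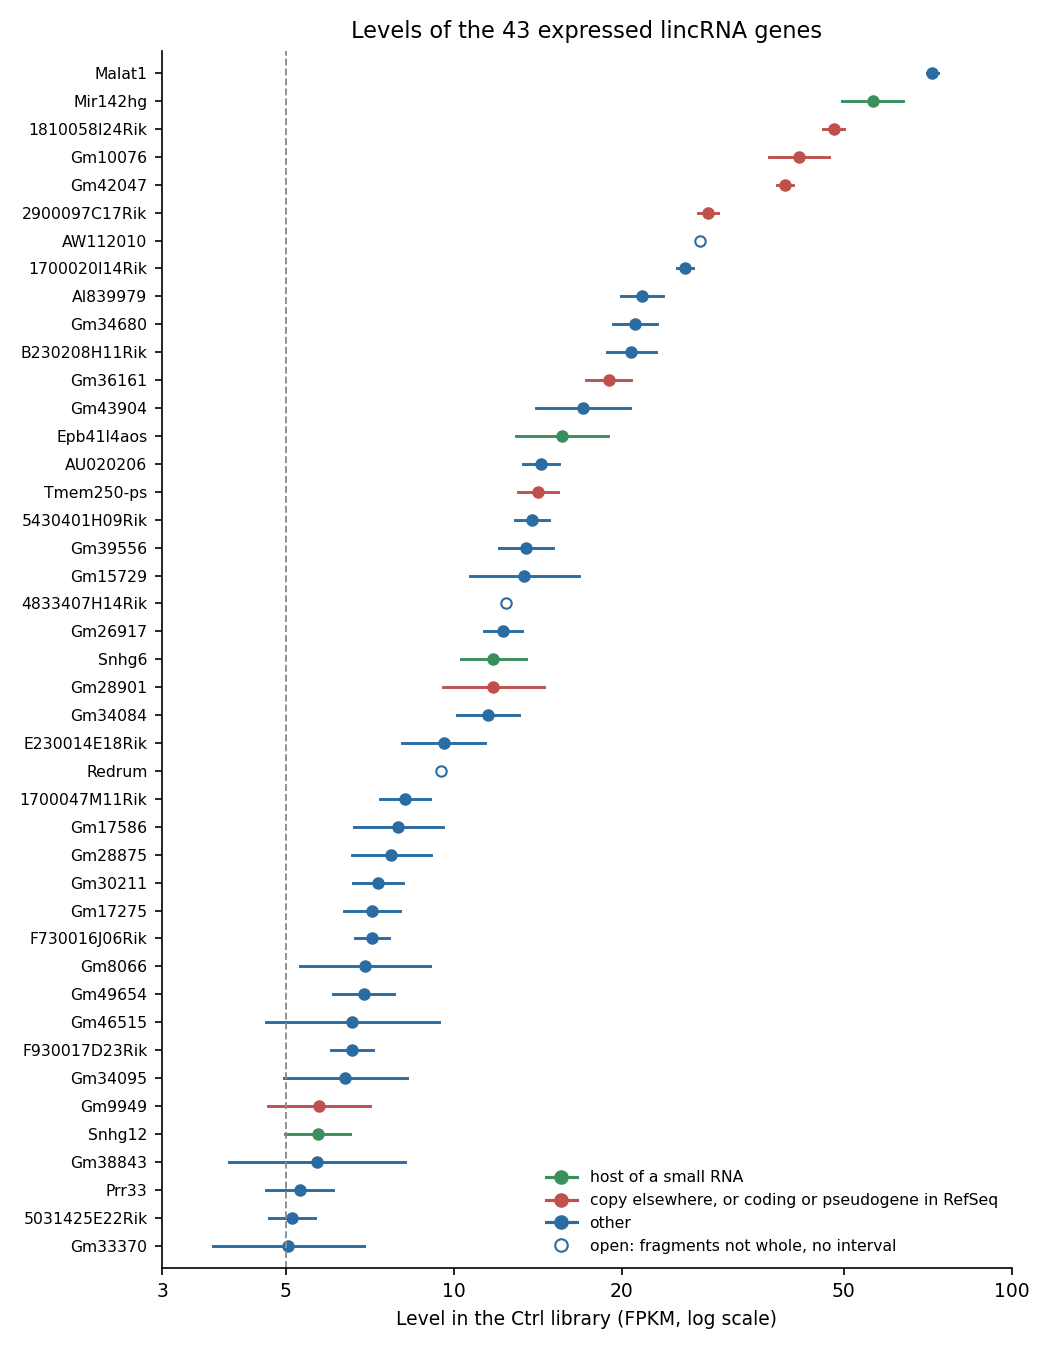
Level of each of the 43 lincRNA genes in FPKM on a log scale (points), with 95% Wilson intervals (lines). Green marks hosts of a small RNA, red marks genes with a near-identical copy elsewhere or a coding or pseudogene entry in RefSeq, and open points are 3 genes whose fragments did not come out whole. The dashed line is the limit of 5 FPKM, and the intervals of 8 genes reach under it.

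Malat1, an abundant RNA of nuclear speckles at chr19:5795690-5802672 on the minus strand, headed the list at 72.0 FPKM (70.5 to 73.6). Its rank was 757 among all genes, and 277 when genes were ranked by fragments, since its exons cover 6983 bases. Its neighbour Neat1, the scaffold of paraspeckles, lies at chr19:5824708-5845478 and had 3.60 FPKM (3.40 to 3.81), under the limit. All 6 paraspeckle proteins examined, beside 32.4% of autosomal protein-coding genes, passed 5 FPKM, with a median of 54.7 FPKM for the 6. The 6 ran from Pspc1 at 8.60 FPKM to the RNA-binding protein gene Hnrnpk at 96.8 FPKM, so each of the mRNAs stood above Neat1 on the per-length scale. That order rests on the 20771 exon bases by which Neat1 was divided. By fragments, Neat1 with 1181 stood above Pspc1 with 778 and Rbm14 with 1002, and below the others.

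Mir142hg came second at 56.3 FPKM (49.6 to 63.9), from 239 fragments on only 269 exon bases at chr11:87755577-87757270. It ranked 1008 by level but 8229 by fragments, so its place rests on its short annotated exons. The miR-142 hairpin itself was listed at 0, and Mir142b, annotated over it on the opposite strand, at 23.7 FPKM. Whether the counting used strand is not given, and reads from opposite strands here cannot be told apart. No level of miR-142 is therefore read from the 0. Of 9 miRNA host genes examined, Mir22hg, host of miR-22, was the only other one at 5 FPKM or more, with 8.66 FPKM. It has another GENCODE type and so was not among the 43. Dleu2, host of miR-15a and miR-16-1, had 3.37 FPKM. Mir17hg, host of the miR-17-92 cluster, had 1.67 FPKM, Mir155hg had 0.177 FPKM from 4 fragments, and 4 hosts were listed at 0. Of the miRNA processing genes, 6 of 9 reached 5 FPKM, beside 32.4% of autosomal protein-coding genes, and the median of the 9 was 6.22 FPKM. Ago2, the argonaute that cuts its targets, was the highest at 28.7 FPKM, Drosha had 7.60 FPKM, Dicer1 4.28 FPKM and Ago3 0.551 FPKM.

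Among the 43 genes, 4 (9.30%) held a miRNA or snoRNA gene on the same strand, compared with 85 of the 4847 autosomal lincRNA genes under 5 FPKM (1.75%) and with 7 of the 152 from 1 to under 5 FPKM (4.61%). On either strand the shares were 9.30%, 2.89% and 5.26%. Beside Mir142hg these were the snoRNA hosts Snhg6, Snhg12 and Epb41l4aos. SnoRNAs sit in introns of such hosts and guide the chemical marking of ribosomal RNA, and the spliced host RNA is often degraded. Snhg6 (chr1:9941959-9944118, minus strand) had 11.8 FPKM (10.3 to 13.5), rank 4577, and carries Snord87. Snhg12 (chr4:132308623-132311024, plus strand) had 5.70 FPKM (4.99 to 6.51), rank 7160, and carries Snora16a, Snora44, Snora61 and Snord99. Its interval reached under the limit. Epb41l4aos had 15.6 FPKM (12.9 to 18.9) from 106 fragments, rank 3691, and holds a snoRNA annotated as Gm23639. The box C/D snoRNAs of the first pair, at chr1:9942463-9942549 (minus) and chr4:132310691-132310764 (plus), show the C box TGATGA and the D box CTGA in capitals.
Snord87: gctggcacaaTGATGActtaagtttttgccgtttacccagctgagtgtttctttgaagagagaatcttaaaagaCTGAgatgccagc
Snord99: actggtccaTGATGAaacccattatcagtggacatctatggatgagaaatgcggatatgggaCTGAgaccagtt

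The snoRNAs themselves were listed at 0 in Snhg12, at 1.46 FPKM for Snord87 and at 0.960 FPKM for Gm23639. The merged exons of Snhg12 cover its whole span of 2402 bases, so its snoRNAs lie within annotated exons of the host. How fragments shared by a host and its snoRNA were counted is not given, and no amount of the snoRNAs is read from these values. Of the 17 snoRNA hosts with a value, 8 were at 5 FPKM or more, but 5 of these are not typed lincRNA. Gas5, a growth-arrest transcript, was the highest at 29.2 FPKM (27.8 to 30.6), and Snhg5, Snhg8, Snhg1 and Zfas1 lay between 10.2 and 15.8 FPKM. Snhg15 and Snhg20 stood just below the limit at 4.24 and 3.40 FPKM, and Snhg9 and Snhg11 were listed at 0. All 8 core proteins of snoRNPs passed 5 FPKM, with a median of 25.1 FPKM. Fbl, which carries the methylating activity of C/D snoRNPs, had 23.9 FPKM, and Dkc1, the pseudouridine synthase, 17.5 FPKM. Spliced snoRNA hosts are known targets of nonsense-mediated decay, and all 8 genes of that pathway passed 5 FPKM, from Upf3a at 6.18 to the helicase gene Upf1 at 38.1 FPKM.

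Norad, at chr2:156388065-156392979, had 28.6 FPKM (27.4 to 29.8) and rank 2080 among all genes. Cyrano, at chr2:119594297-119607502, had 25.9 FPKM (25.1 to 26.8) and rank 2317. Both are long, with 4915 and 8306 exon bases, and their levels rested on 2216 and 3402 fragments, which placed Cyrano 3 and Norad 4 in the order of the 43 by fragments. Part of Norad, 2537 bases, matched the lincRNA gene Gm7292 on chromosome 6 at 99.2% identity, and Gm7292 was at 0.577 FPKM. Of the other growth-related lncRNA genes examined, Tug1, with roles in chromatin repression, had 12.04 FPKM but another type. Dancr had 0.810 FPKM, Pvt1, the neighbour of Myc, 0.534 FPKM, and Trp53cor1 (lincRNA-p21) and Miat were listed at 0. Of the 7 genes of that list matched by symbol, Norad was the only lincRNA-typed one above the limit. Cyrano, also on the list but found under another symbol, is lincRNA-typed and above the limit too.

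AW112010, an RNA of immune cells induced by inflammatory stimuli and reported to be translated, had 27.6 FPKM and rank 2156. Its fragments did not come out whole with the M21 exon length, so it has no interval. Redrum, described as a lncRNA of red cell precursors, had 9.50 FPKM, rank 5291, and no interval for the same reason. Of 12 other lncRNA genes of blood or development with a value, only Mirt2, an inflammation-responsive RNA, passed 5 FPKM, at 9.69 FPKM and with another type. Lockd, beside the cell cycle inhibitor gene Cdkn1b, had 4.53 FPKM, and Ttc39aos1 (lincRNA-EPS), described in the survival of erythroid cells, 2.95 FPKM. Ptgs2os2 (lincRNA-Cox2), an RNA of activated macrophages, had 0.581 FPKM, and Hotairm1, from the Hoxa cluster, 0.494 FPKM. Dnm3os, Hoxa11os, Hotair and Fendrr, RNAs of mesenchyme and trunk development, were listed at 0. Of 7 imprinted lncRNA genes, Peg13 was at 12.8 FPKM and the rest were under 0.1 FPKM, H19 with a single fragment and Meg3 with none.

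**Figure D4:**
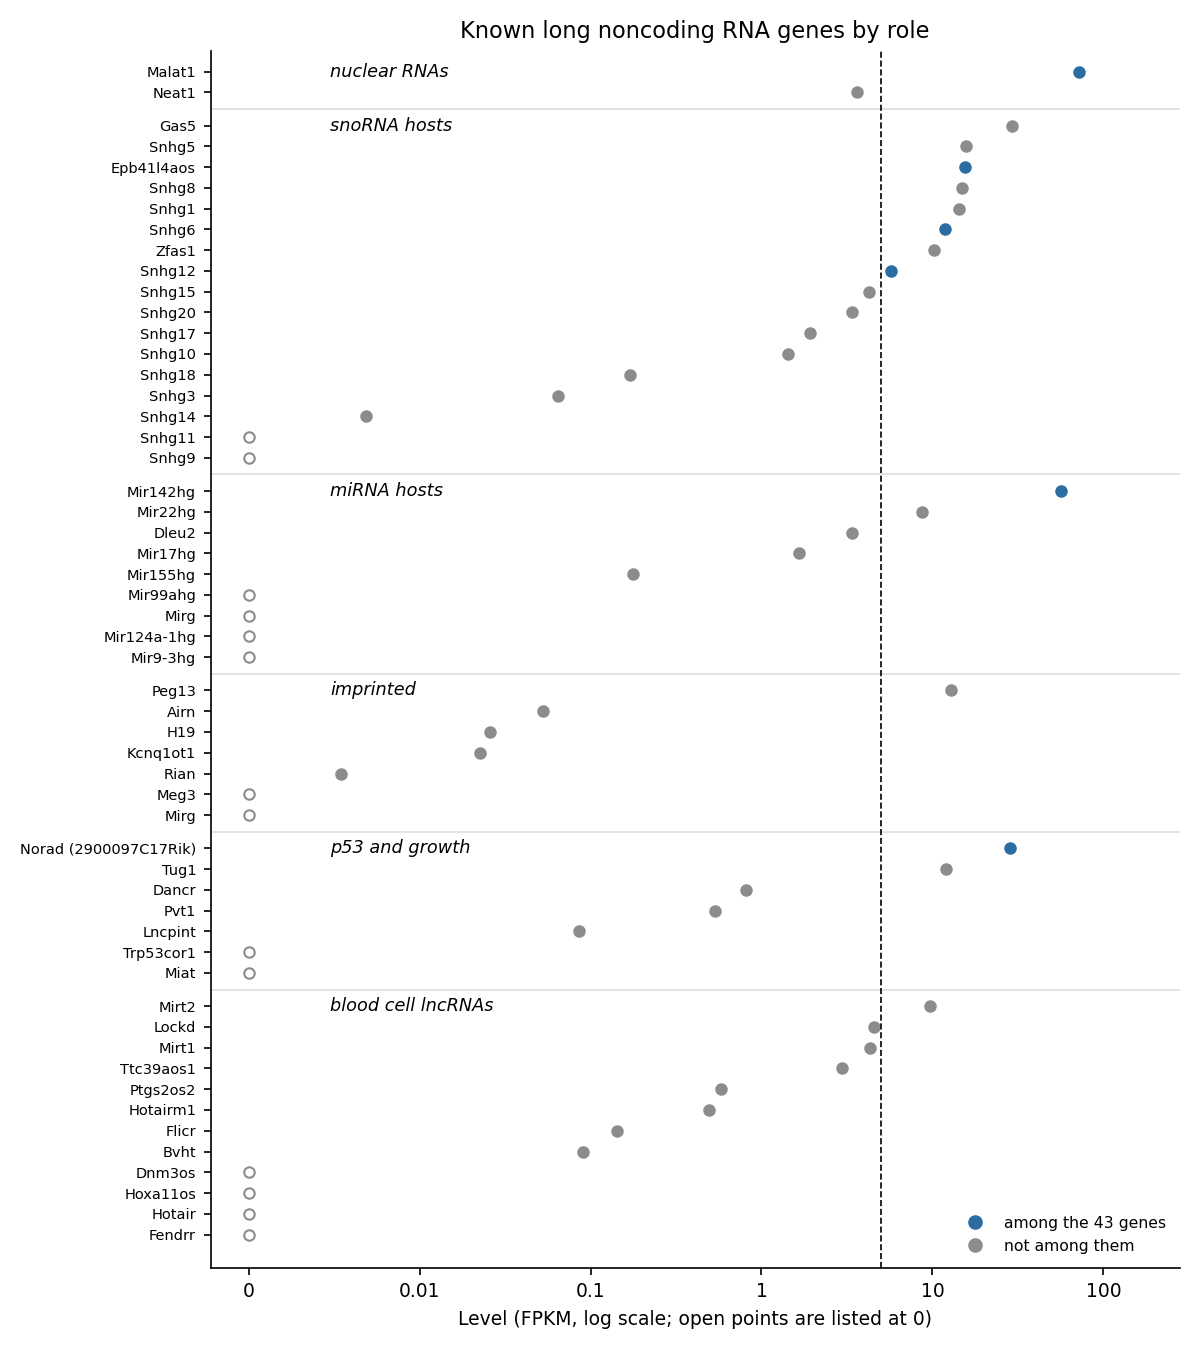
Level of known long noncoding RNA genes in FPKM on a log scale, 1 row per gene, grouped by role, with genes among the 43 in blue, others in grey and genes listed at 0 as open points at the left; Cyrano, found under another symbol, is not drawn. Most known genes stand under the dashed line at 5 FPKM, and those above it in grey have a GENCODE type other than lincRNA.

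GENCODE and RefSeq did not type all of these genes alike. RefSeq had an entry for 32 of the 43, of which 28 were lncRNA, 3 protein-coding and 1 a pseudogene. Among autosomal lincRNA genes under 5 FPKM, 53 of 2499 matched were protein-coding (2.12%), and among those from 1 to under 5 FPKM, 6 of 96 (6.25%), against 3 of 32 (9.38%) here. The coding entries were 1810058I24Rik, Tmem250-ps and Gm9949. 1810058I24Rik, named Stmp1 among its synonyms, encodes a short mitochondrial protein and came behind Mir142hg with 48.0 FPKM (46.0 to 50.1), rank 1212, at chr6:35252654-35263496. Tmem250-ps had 14.2 FPKM (13.0 to 15.4) and a longest reading frame of 170 codons.

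Gm10076, next in order at 41.6 FPKM (36.8 to 47.0) and rank 1400, is the RefSeq pseudogene. Its single exon of 384 bases at chr14:105681828-105682211 matched Rpl41, the gene of the smallest ribosomal protein, over 383 bases at 99.5% identity, with 2 differences. The whole reading frame of 25 codons was identical in 3 of 7 Rpl41 transcripts. It lies at chr14:105681869-105681946 on the plus strand, and its start and stop codons are in capitals.
reading frame in Gm10076: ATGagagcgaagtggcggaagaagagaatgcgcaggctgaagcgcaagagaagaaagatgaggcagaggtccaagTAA

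Rpl41 itself had 521 FPKM (511 to 532), and fragments of the pair cannot be told apart over this frame. By the same measure, a match of at least 95% identity over at least 50% of the longest transcript, 5 of the 43 genes (11.6%) had a copy, as did 163 of the 4847 lincRNA genes under 5 FPKM (3.36%) and 6 of the 152 from 1 to under 5 FPKM (3.95%). Gm28901 (11.8 FPKM) matched Hnrnpf, an RNA-binding protein gene at 136 FPKM, over 410 of 474 bases. Gm36161 (18.9 FPKM) matched Gm21188 along its length, at 95.7% identity. Gm42047, at 39.3 FPKM (38.0 to 40.6) and rank 1488, matched Gm48362 and 2 further lincRNA genes, which were at 0 to 0.0952 FPKM, and its own longest frame was the longest of the 43 with 393 codons. The remaining gene with a copy was Norad. How fragments mapping to more than one place were counted is not given, and the levels of these 5 are uncertain for that reason.

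Another gene, Gm26917 (12.3 FPKM, 11.3 to 13.2), ends 13 bases before Rn18s-rs5, annotated as a relative of 18S ribosomal RNA, on chromosome 17. Its longest transcript has 69.1% GC. Gm17275 (7.13 FPKM) overlaps an exon of H3f3a, the histone H3.3 gene at 209 FPKM on the opposite strand, and its exons matched pseudogenes of H3f3a over 135 bases. Exons of 8 of the 43 genes (18.6%) overlapped those of another gene, as did 15.9% of autosomal lincRNA genes under 5 FPKM and 27.0% of those from 1 to under 5 FPKM.

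The place of the 43 genes beside coding genes was examined next. Coding genes are here those typed protein-coding in GENCODE, and immunoglobulin genes, which have types of their own, were not counted. Spans overlapped a coding gene in 6 (13.95%), 3 (6.98%) were divergent, that is on the opposite strand with start sites within 5 kb, 3 (6.98%) began within 5 kb after the end of a coding gene, and 31 (72.1%) stood apart. Among lincRNA genes under 5 FPKM, 9.53% overlapped, 7.26% were divergent, 2.89% lay downstream and 80.3% stood apart. Among the 152 from 1 to under 5 FPKM, these shares were 9.87%, 15.1%, 10.5% and 64.5%. The nearest coding start site lay at a median distance of 25538 bases, against 63334 for lincRNA genes under 5 FPKM and 22058 for those from 1 to under 5 FPKM. The nearest coding gene had a median of 11.4 FPKM, against 1.12 and 9.85 FPKM, and was itself at 5 FPKM or more in 28 of 43 (65.1%) against 32.7%. For the 152 lincRNA genes from 1 to under 5 FPKM that share was 63.2%. Across the 43 genes, the Spearman correlation between the level of a lincRNA gene and that of its neighbour was -0.19 (n = 43 genes of the same library). It describes only levels above the limit by which the genes were chosen, and no relation or lack of one is read from it.

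**Figure D5:**
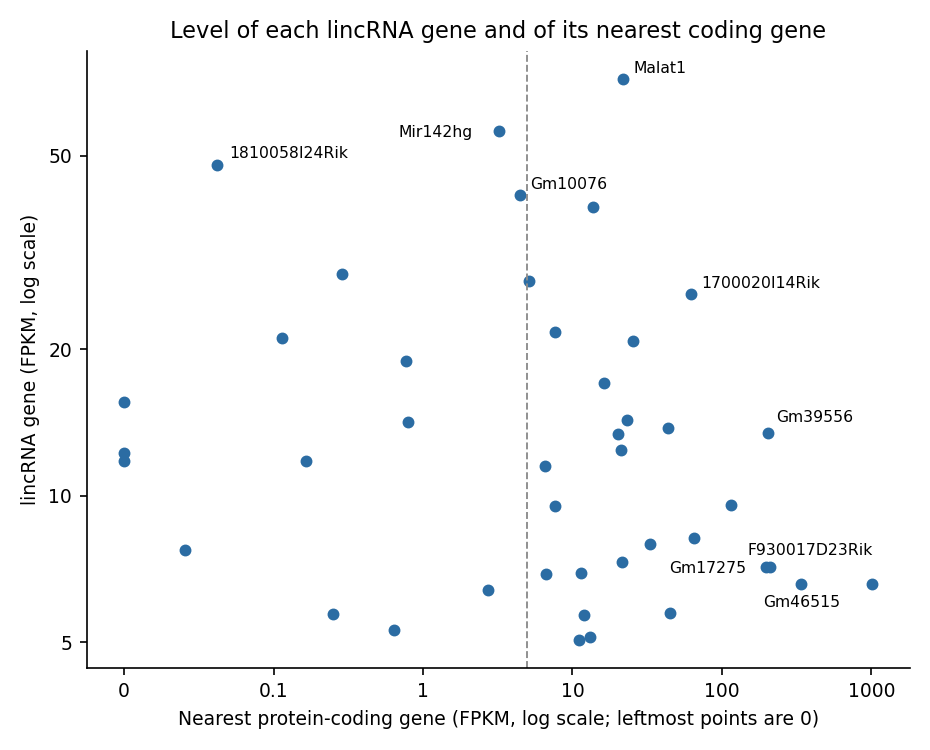
Level of each of the 43 lincRNA genes (y axis, FPKM, log scale) against that of the protein-coding gene with the nearest start site (x axis, FPKM, log scale, with genes at 0 placed leftmost), and a dashed line at 5 FPKM on the x axis. Of the 43 points, 28 lie to the right of the line, and none can lie under 5 FPKM on the y axis because of the choice of genes.

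Of the divergent pairs, 2 are described here. Gm17586 starts 168 bases from Mafg, a small Maf factor of the erythroid and megakaryocyte lineages, and had 7.95 FPKM against 33.2 FPKM for Mafg. 5031425E22Rik starts 172 bases from Kmt2e, a regulator of blood cell maturation, with 5.13 against 13.1 FPKM. The coding gene was the higher in both of these pairs. With start sites within 10 kb, 6 genes counted as divergent. The 3 genes that begin after the end of a coding gene were nearer to it in level. Gm15729 had 13.4 FPKM after Cep19, a centrosomal protein gene, at 20.3 FPKM, Gm28875 had 7.73 FPKM after Syne3, a nuclear envelope gene, at 10.7 FPKM, and Gm49654 had 6.90 FPKM after Map3k9, a kinase gene, at 6.71 FPKM.

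The start region of Gm17586 was the richest in CpG of the 23 promoters matched in RefSeq. In the 300 bases from 250 before to 50 after the start (chr11:120633500-120633799, plus strand) it has 39 CpG, in capitals below. The 23 promoters had a median of 4 CpG, compared with 7 over 32851 RefSeq promoters, and 8 of the 23 (34.8%) held 10 or more against 43.5% of all.
promoter of Gm17586: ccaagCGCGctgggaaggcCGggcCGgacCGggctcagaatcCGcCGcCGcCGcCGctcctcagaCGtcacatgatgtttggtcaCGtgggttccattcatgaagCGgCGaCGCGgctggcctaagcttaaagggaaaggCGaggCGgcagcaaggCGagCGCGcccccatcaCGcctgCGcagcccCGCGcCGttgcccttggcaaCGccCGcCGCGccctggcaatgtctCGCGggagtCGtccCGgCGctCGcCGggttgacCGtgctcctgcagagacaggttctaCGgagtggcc

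Letters bound by factors of blood lineages were counted on both strands of the same 23 promoters, and no full match of 1 motif lies within another. GAGGAAGT, the core of PU.1 sites, was in 3 promoters (13.0%), those of 4833407H14Rik, Gm34084 and Gm33370, against 3.20% of all promoters. TTGCNNAA, of C/EBP sites, was in 4 (17.4% against 10.8%), those of AI839979, Gm36161, E230014E18Rik and Gm33370. AGATAA, of GATA sites, and TATAAA, the TATA box, were in 1 each (4.35%), against 11.2% and 13.6% of all promoters. These are matches of letters in 23 windows, and binding was not measured.

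Some neighbours of the 43 genes are known from blood cells, and these examples were chosen after their values were seen. Gm30211 (7.31 FPKM, 6.59 to 8.11) at chr6:70719074-70740554 spans Igkc, the constant part of the kappa light chain of B cells, which was at 4323 FPKM. Igkc has an immunoglobulin type, so Gm30211 was counted above as standing apart, with Rpia as its nearest coding gene. F930017D23Rik (6.57 FPKM, 6.03 to 7.16) had Cd24a, a surface protein of immature blood cells at 1016 FPKM, as its nearest coding gene. The start sites of this pair lay 15113 bases apart. F730016J06Rik (7.13 FPKM, 6.64 to 7.65) lies 10592 bases from Fcnb, a ficolin of myeloid cells at 198 FPKM. Gm43904 (17.1 FPKM, 14.05 to 20.7) starts 1929 bases before Gp9, a platelet glycoprotein gene, whose level was 16.2 FPKM (14.2 to 18.4), and these intervals overlapped. Prr33 (5.29 FPKM, 4.60 to 6.08) overlaps Lsp1, a leukocyte actin-binding protein gene at 118 FPKM. The nearest coding gene was at 100 FPKM or more for 6 of the 43 genes (13.95%), for 5.92% of lincRNA genes from 1 to under 5 FPKM and for 2.02% of those under 5 FPKM, while 2.06% of all autosomal coding genes were at that level. Among the 6 was Pabpc1, the poly(A)-binding protein gene, at 337 FPKM. Its start site lay 85997 bases from that of Gm46515 (6.58 FPKM from 30 fragments).

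The other genes of the top 10 were less characterised. AI839979 (21.7 FPKM, 19.96 to 23.7) lies 25538 bases from Mrpl33, a mitochondrial ribosomal protein gene at 7.64 FPKM. Gm34680 (21.1 FPKM, 19.3 to 23.1) lies within the span of Zdhhc19, a palmitoyltransferase gene at 0.114 FPKM. B230208H11Rik, next in order at 20.8 FPKM (18.8 to 22.999), is nearest to Stx11, a syntaxin gene of immune cells at 25.6 FPKM. Of the remaining genes above 10 FPKM, AU020206 had 14.3 FPKM, 5430401H09Rik 13.8 FPKM, Gm39556 13.5 FPKM, 4833407H14Rik 12.4 FPKM and Gm34084 11.5 FPKM. Their nearest coding genes ran from 6.61 FPKM for Jarid2, a partner of Polycomb repressors, to 204 FPKM for the surface antigen gene Ly6e. Between start sites, Jarid2 lay 224926 bases from Gm34084 and Ly6e 25614 bases from Gm39556. Below 10 FPKM, E230014E18Rik had 9.59 FPKM, 1700047M11Rik 8.17 FPKM, Gm34095 6.39 FPKM and Gm38843 5.69 FPKM. Gm8066 (6.92 FPKM) lies in the annotated span of Epo, the erythropoietin gene, which was listed at 0.

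At the limit, the 3 lowest genes inside were Prr33, 5031425E22Rik and Gm33370, the last at 5.05 FPKM (3.70 to 6.91) from 39 fragments. The 3 just outside were Gm38079 at 4.94 FPKM (2.82 to 8.63) from 12 fragments, Gm12319 at 4.79 FPKM (3.29 to 6.97) and Lockd at 4.53 FPKM (4.12 to 4.99). The intervals of 8 genes inside reached under 5 FPKM, and those of 8 genes outside reached it, among them Bloodlinc at 3.92 FPKM.

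In exon number, exon length and reading frames, the 43 genes had medians nearer to other lincRNA genes than to coding genes. Their median GC content was nearer to that of coding genes than to that of lincRNA genes under 5 FPKM. It was nearest to that of the 152 lincRNA genes from 1 to under 5 FPKM. Exons of the 43 genes covered a median of 1494 bases, against 1006 for lincRNA genes under 5 FPKM and 4132.5 for coding genes at 5 FPKM or more. The 152 lincRNA genes from 1 to under 5 FPKM had medians of 1245 exon bases, 47.9% GC and a longest frame of 66.5 codons. Exon length enters FPKM and is not independent of the choice. The fullest transcript had a median of 3 exons in both lincRNA groups and 9 in the coding group, and 4 of the 43 genes (9.30%) had a single exon, against 6.13% of lincRNA genes under 5 FPKM, 10.5% of those from 1 to under 5 FPKM and 1.62% of the coding genes. The longest transcript had a median GC content of 49.0%, against 46.5% and 50.3%. The longest reading frame from ATG had a median of 72 codons, against 62 and 373, and reached 100 codons in 9 of the 43 (20.9%), against 16.3% of lincRNA genes under 5 FPKM, 15.1% of those from 1 to under 5 FPKM and 93.3% of the coding genes.

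The 43 genes came from 17 of the 19 autosomes, with none on chromosomes 3 and 9. All lincRNA genes of M21 on chromosomes 1 to 16 had a value. On chromosome 17 the number with a value was 161 of 231, on chromosome 18 it was 36 of 192 and on chromosome 19 it was 40 of 133. The others were not analysed here. On the same 3 chromosomes, fragments came out whole for 80.7%, 48.9% and 48.9% of genes above 0, against a lowest share of 99.8% among the others. Of the 43 genes, 7 lie there, among them Malat1 and the 3 without an interval, AW112010, 4833407H14Rik and Redrum. The values of those 3 are given as deposited.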

How the data were processed

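RNA from the sorted BM cells was sequenced on an Illumina HiSeq platform. The FPKM values, 1 for each of 54532 Ensembl genes, were used as deposited by the authors. Submitters' processing notes name HISAT2 2.0.5, featureCounts 1.5.0-p3 and the mm10 build. The annotation release, strand setting and treatment of multiply mapped reads are not given in the sources used here.

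Gene types, coordinates and exon lengths came from GENCODE M21 (GRCm38, the same build), in which 37 identifiers were missing. FPKM times exon length was a whole multiple of a common step, within 0.01, for 20547 of 21313 genes above 0 (96.4%). These multiples were taken as fragments (sum 17113323, against 15783891 by the step itself). The recovery was also tried on simulated fragments, and the outcome of that trial is not given here. Longest transcripts were compared with all others by blastn 2.17.0. RefSeq supplied gene types, promoters and mature miRNAs. Figures were drawn with matplotlib 3.10.9. A share of soft-masked bases was not computed.

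Named genes were those with a symbol other than a Gm, Rik or accession name, the 10 highest, hosts of small RNAs, the 3 on each side of the limit, the genes of the lists, and nearest coding genes. Other genes named beside a role, a copy or a neighbour were chosen after their values were seen. The members and lists were chosen with earlier results of these data known. The alternatives tried are given in the closing section. The result for 1 neighbouring gene is not reported here.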

Additional observations from a re-analysis of the deposited data

How the results depend on the processing

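No paired analysis was possible because there is 1 library. The number of 43 genes rests first on the limit: 195 genes reached 1 FPKM, 24 reached 10 FPKM, and 97 reached 5 when FPKM was rescaled to TPM (a fixed sum over all genes), which raised the median from 11.8 FPKM to 27.5 TPM. Adding antisense and 3 other noncoding types gave 99. The number stayed within 1.5 times of 43, between 35 and 52, when FPKM was rescaled without the 10 most abundant genes, when 50 fragments or whole fragments were required, when X and Y were added, or when genes with overlapping exons, a copy or a coding or pseudogene entry in RefSeq were left out (the last pair chosen after seeing the data). The share of 0.166% became 0.177% by fragments, 0.150% without Malat1, 0.225% of a total without the 10 most abundant genes, and 0.134% without the 5 genes with a copy. Hosts of small RNAs stayed at 4 on either strand. Divergent genes stayed at 3 within 2 kb and became 6 within 10 kb. Ranked by fragments instead of FPKM, Mir142hg moved from place 1008 to 8229, Gm10076 from 1400 to 8089, 1810058I24Rik from 1212 to 1734, Malat1 from 757 to 277 and Gm42047 from 1488 to 925.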

Other observations

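The sex chromosomes were outside the rule. Of 645 lincRNA genes on X and Y, 2 reached 1 FPKM. Xist, the RNA that silences an X chromosome in female cells, had 15.5 FPKM (15.1 to 16.0) from 4400 fragments, a level between those of Epb41l4aos and AU020206. Its neighbour Ftx had 1.38 FPKM. Of the other noncoding types of GENCODE M21, 23 of 725 processed transcripts (3.17%), 23 of 2809 antisense genes (0.819%), 5 of 178 bidirectional promoter lncRNAs (2.81%) and 5 of 319 sense intronic genes (1.57%) were at 5 FPKM or more.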
